A study of Mus musculus with 2 samples.

Results

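Dense clusters of distal open sites were runs of at least 6 open chromatin sites that lay away from gene starts and close to one another. They were built from the longer of the peak lists of replicate 1, in which peaks centred over 1 kb from any annotated transcription start site (TSS) and overlapping a peak of replicate 2 were joined wherever the gap was at most 5 kb. Of 89245 such shared distal peaks on the autosomes, 4354 fell into 612 clusters, which is 4.88% of the peaks, and the clusters spanned 7.17 Mb in all. Members were thus selected on the presence and spacing of peaks in both libraries and ranked on replicate 1 heights, and those values are a description only. The peaks came from DNase-seq, in which the enzyme DNase I cuts accessible DNA in isolated nuclei. The tissue was the whole adrenal gland of female B6CASTF1/J mice, an F1 hybrid strain, aged 36 days. There was 1 group with 2 biological replicates, whose labels number the animals differently and give a common donor record, and there was no treated, mutant or other-tissue group. The values therefore have no test between conditions, and the spread given is that between the 2 libraries.

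Open sites away from gene starts often act as enhancers, short elements that bind transcription factors and act on genes at a distance. Loci with many such sites in a row are often found at genes that a tissue expresses strongly or that respond quickly to signals. The adrenal cortex makes steroid hormones under the control of the nuclear receptor SF-1 (the product of Nr5a1), and the medulla makes catecholamines in chromaffin cells. In whole tissue, fewer cells of a type and less open chromatin per cell cannot be told apart.

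The sequences shown next are the centres of peaks in clusters described further on, with 100 bases on either side, read from the mm10 reference on the plus strand, 5′ to 3′. The first ones are the tallest peaks of the clusters ranked 1 to 3 by summed height, and the Kcnk3 pair are the peaks of an adrenal cluster that hold the SF-1 core word. Tallest refers to replicate 1. In replicate 2 the Kdm6b peak reached 14.4, where another peak of its cluster reached 18.5. The Ctc1 peak reached 7.43 in replicate 2, where another of its cluster reached 10.2. Capitals mark the palindromic E-box CACGTG and the KLF and SP box GGGCGGGG on either strand in the first, the E-box in the second, the AP-1 word TGANTCA in the third and the SF-1 core CAAGGTCA on either strand in the Kcnk3 pair. In the tRNA cluster peaks capitals mark the part of a RefSeq tRNA gene that lies in the window.
Thra and Nr1d1 cluster, tallest peak, chr11:98773851-98774051 (+): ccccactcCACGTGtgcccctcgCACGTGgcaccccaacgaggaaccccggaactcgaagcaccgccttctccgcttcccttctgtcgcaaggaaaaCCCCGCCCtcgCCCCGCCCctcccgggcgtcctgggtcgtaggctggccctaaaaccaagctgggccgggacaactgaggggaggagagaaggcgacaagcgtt
Kdm6b cluster, tallest peak, chr11:69418891-69419091 (+): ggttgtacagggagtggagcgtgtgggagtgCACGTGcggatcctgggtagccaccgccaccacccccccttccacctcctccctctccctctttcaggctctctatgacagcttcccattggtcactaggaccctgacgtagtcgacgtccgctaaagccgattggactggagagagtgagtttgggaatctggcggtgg
Cluster near Lrrc74a, tallest peak, chr12:86801241-86801441 (+): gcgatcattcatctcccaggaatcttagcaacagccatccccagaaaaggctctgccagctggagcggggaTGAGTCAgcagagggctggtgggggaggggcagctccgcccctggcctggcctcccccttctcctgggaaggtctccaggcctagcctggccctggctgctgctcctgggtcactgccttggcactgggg
Kcnk3 cluster, tallest peak, chr5:30614311-30614511 (+): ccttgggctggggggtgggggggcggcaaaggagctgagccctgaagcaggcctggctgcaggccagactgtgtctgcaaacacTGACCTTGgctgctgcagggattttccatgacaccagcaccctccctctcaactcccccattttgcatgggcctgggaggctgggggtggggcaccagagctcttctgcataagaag
Kcnk3 cluster, second peak with the word, chr5:30628501-30628701 (+): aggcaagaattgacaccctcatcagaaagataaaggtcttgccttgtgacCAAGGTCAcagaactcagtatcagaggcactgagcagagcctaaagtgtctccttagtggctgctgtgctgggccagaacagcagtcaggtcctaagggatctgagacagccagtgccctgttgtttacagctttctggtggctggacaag
Ctc1 cluster, tallest peak, tRNA-Asp gene, chr11:69040911-69041111 (+): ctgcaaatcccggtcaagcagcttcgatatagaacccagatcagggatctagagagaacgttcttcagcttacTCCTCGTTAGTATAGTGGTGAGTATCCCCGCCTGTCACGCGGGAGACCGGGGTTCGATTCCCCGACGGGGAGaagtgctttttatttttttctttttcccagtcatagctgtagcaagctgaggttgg
Cluster near Hfe2, tallest peak, tRNA-His gene on the minus strand, chr3:96500331-96500531 (+): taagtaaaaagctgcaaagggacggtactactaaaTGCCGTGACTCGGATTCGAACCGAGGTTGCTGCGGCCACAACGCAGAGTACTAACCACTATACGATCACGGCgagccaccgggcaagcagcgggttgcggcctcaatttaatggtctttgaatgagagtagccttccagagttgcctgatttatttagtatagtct

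The clusters were short runs for the most part. Of the 612 clusters, 294 had 6 peaks, 171 had 7 and 47 had 10 or more, up to 19. Spans ran from 1.83 to 33.9 kb, with a median of 11.5 kb. The tallest peak held a median of 31.4% of a cluster's summed height. Just inside the limit, the 294 chains of 6 peaks had a median summed height of 11.1 and a median span of 10.01 kb. Just outside it, the 695 chains of 5 peaks had a median summed height of 8.25 and a median span of 8.08 kb. Sums and spans grow with the number of peaks, so part of both differences is set by the limit itself. The authors list some peaks that overlap or touch, and 8.52% of clustered peaks lay within 100 bp of another shared distal peak, against 2.47% of other shared distal peaks. A difference here is set by the rule, which chose members for close spacing. Of the other peaks, 39652 stood alone, with no shared distal peak within 5 kb.

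Clusters were ranked by the summed height of their replicate 1 peaks, height being the authors' deposited signal. The sums ran from 2.35 to 92.4 in replicate 1, with a median of 13.7. In replicate 2, whose heights the ranking did not use, the distal peaks inside the same spans summed to 1.97 to 134, with a median of 19.5. The 15 clusters ranked highest in replicate 1 were also the 15 highest in replicate 2, and 43 of the highest 50 and 86 of the highest 100 were shared. Across the 612 clusters the log2 sums of the replicates had a Pearson correlation of 0.963 and the sums a Spearman correlation of 0.961. These describe clusters whose spans were chosen for peaks in both libraries. The sum was higher in replicate 1 in 29 clusters, and the median log2 ratio of replicate 1 over replicate 2 was -0.50. The 2 sums are unlike, since that of replicate 1 holds shared peaks only and that of replicate 2 all distal peaks in the span. Each peak was also set against its tallest overlapping peak of replicate 2. There the median log2 ratio was -0.40 for clustered and -0.28 for other shared distal peaks. The scale of the deposited heights is not given in the sources used here, so the shared offset cannot be told apart from scaling. The part of the unlike sums in it was not tested.

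The cluster with the largest summed height overlapped Thra and Nr1d1 and ran on into intergenic DNA, on chromosome 11 between 98767381 and 98789060. Thra encodes a thyroid hormone receptor, and Nr1d1 encodes REV-ERB alpha, a repressor of the circadian clock. It held 16 peaks in 21.7 kb, with a summed height of 92.4 in replicate 1 and 134 in replicate 2. Its tallest peak had a height of 29.1 in replicate 1 and 40.8 in replicate 2, and its centre lay 1.38 kb from the nearest protein-coding TSS, that of Nr1d1. That peak is the first sequence printed, with 2 E-boxes and 2 KLF and SP boxes, and 4 of the 16 peaks held the E-box. The next tallest peak reached 16.6 in replicate 1 and 25.3 in replicate 2 and lay in intergenic DNA. Of the 15 highest clusters it was the one no longer called when only peaks at or above the median height were joined.

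The second cluster overlapped part of Kdm6b, which encodes a histone H3 lysine 27 demethylase, and ran on into intergenic DNA, where its tallest peak lay. Its 14 peaks spanned 11.9 kb and summed to 72.2 in replicate 1 and 115.5 in replicate 2. Peak heights ran from 1.12 to 10.8 in replicate 1, and the tallest peak held 14.99% of the sum. The clusters ranked 3 and 6 were neighbours on chromosome 12, in intergenic DNA with Lrrc74a and Irf2bpl as the genes of the nearest protein-coding TSS. Their tallest peaks lay 60.3 kb and 50.9 kb from those starts. The first of them had 11 peaks and sums of 58.8 in replicate 1 and 82.4 in replicate 2, and the other had 10 peaks and sums of 54.1 in replicate 1 and 82.6 in replicate 2. Together they made a stretch of 49.6 kb with 21 clustered peaks.

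Zfp503, a zinc finger repressor gene, had 17 peaks in 14.2 kb, which summed to 58.5 in replicate 1 and 98.6 in replicate 2. The next in rank lay near Spag9, with 14 peaks over 27.0 kb, and near Tex44, also with 14 peaks. The cluster near Spag9 was 1 of 4 in which 3 peaks held the SF-1 core. Mnt, a repressor of MYC target genes, had 6 peaks, of which the tallest held 51.1% of the height. Nfic, which encodes a nuclear factor I protein, had the longest span, 33.9 kb, with 15 shared distal peaks of replicate 1. All distal peaks of replicate 2 in that span, shared or not, numbered 30, so the counts are not on a like basis. Id2, an inhibitor of basic helix-loop-helix factors, had 14 peaks, and Tnrc18 had 19. Ptma, the prothymosin alpha gene, had 7 peaks, and its sums of 40.7 in replicate 1 and 65.7 in replicate 2 closed the first 15. With RefSeq start sites added to the GENCODE ones, the clusters ranked 2, 8, 9, 12 and 14 were no longer called.

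**Figure D1:**
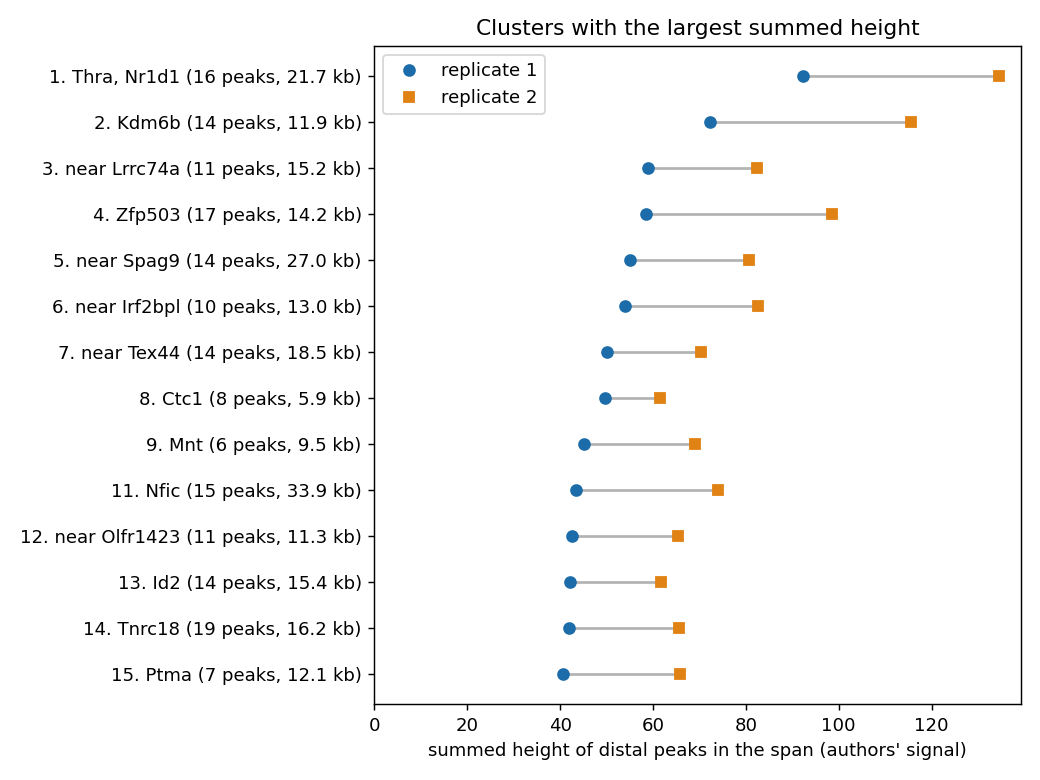
Summed height of distal peaks in 14 of the 15 clusters ranked highest, in replicate 1 (circles) and replicate 2 (squares); the grey line joins the libraries of a cluster, and labels give rank, genes, peaks and span. All 14 sums were higher in replicate 2, and the Thra and Nr1d1 cluster was first in both with 92.4 and 134. Replicate 1 sums hold shared peaks only, and replicate 2 sums hold all distal peaks in the span.

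**Figure D2:**
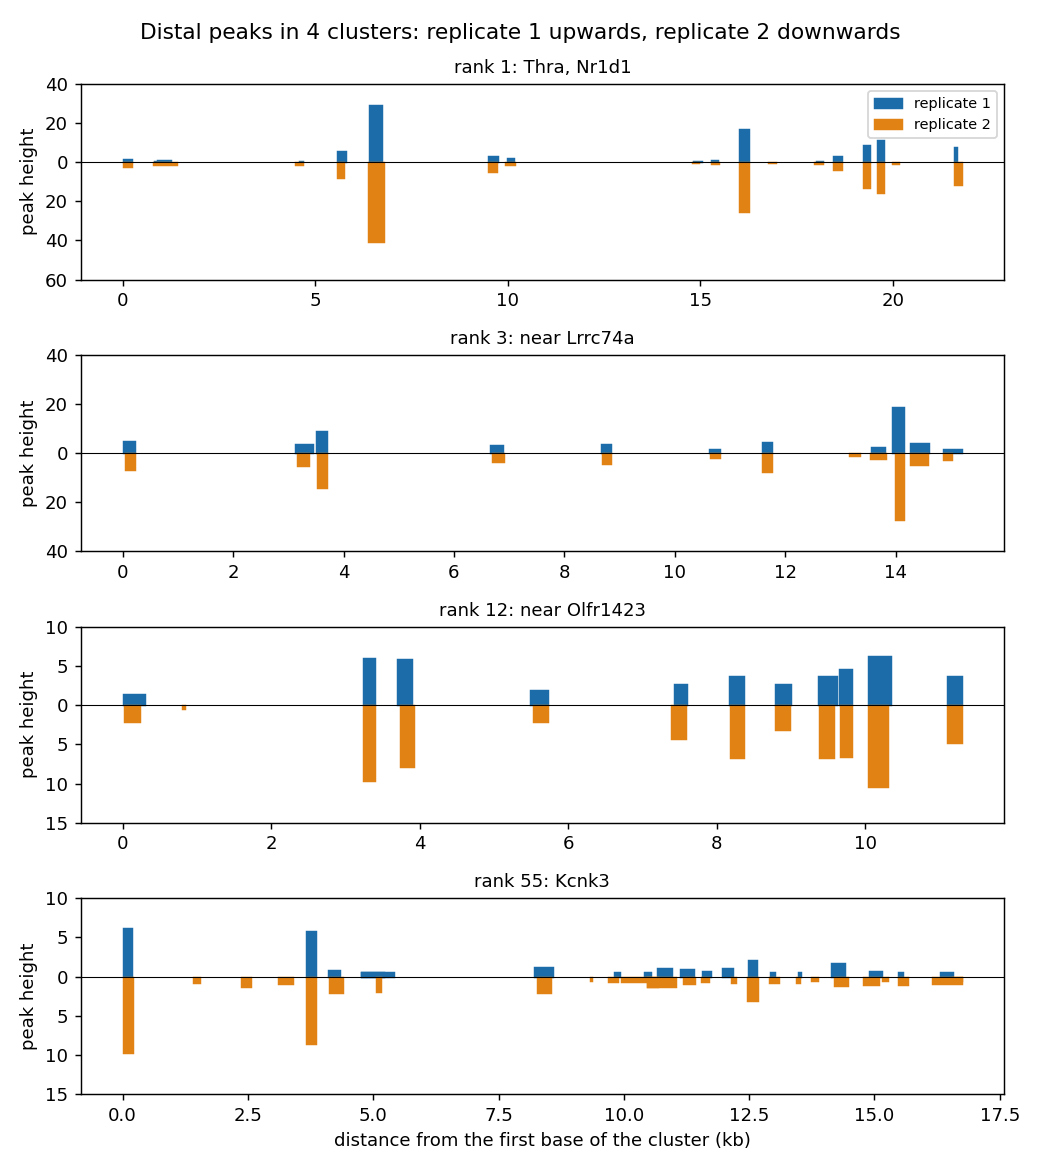
Height of each peak against its distance in kb from the first base of 4 clusters, with shared distal peaks of replicate 1 upwards and all distal peaks of replicate 2 downwards. Height was concentrated in a few peaks at Thra and Nr1d1 and ran from 1.44 to 6.23 in replicate 1 over the 11 peaks of the tRNA cluster near Olfr1423, while most of the 19 Kcnk3 peaks were low.

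Several of the high clusters were arrays of tRNA genes, which RNA polymerase III transcribes from promoters inside the gene. RefSeq tRNA genes are not in the GENCODE set of start sites, so the rule did not treat them as starts. In all, 16 clusters held at least 1 of the 403 tRNA genes, 12 held 3 or more, and 65 tRNA genes lay in clusters. Among clustered peaks 89 lay within 1 kb of a tRNA gene, or 2.04%, against 175 of the other shared distal peaks, or 0.206%. The Ctc1 cluster, ranked 8, had 8 peaks in 5.94 kb, each within 1 kb of a tRNA gene, and 7 tRNA genes. Its summed height was 49.7 in replicate 1 and 61.4 in replicate 2. The cluster near Olfr1423, ranked 12, had 11 peaks and 8 tRNA genes and sums of 42.5 in replicate 1 and 65.3 in replicate 2. The cluster near Hfe2, ranked 20, had 9 peaks and 5 tRNA genes. tRNA genes have near copies, and 77.0% of the 32-base words in the peaks of the Ctc1 cluster occurred once in the reference, against 98.9% over all clustered peaks and 98.6% over the other shared distal peaks.

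Genes of steroid synthesis had clusters in 6 of 14 cases, counted where a cluster touched the gene body or 10 kb on either side. By the same measure 590 of 20807 autosomal protein-coding genes had one, or 2.84%. The list had 3 of 14 with 8 or more peaks asked for, which gave 147 clusters in all. With the shorter peak lists, which gave 158 clusters, it had 2 of 14, Cyp21a1 and Scarb1. The 2.84% belongs to the 612 clusters, so it is not the measure for counts at other settings, here or below. The cluster at Star, which carries cholesterol into mitochondria, lay partly in the gene body and also overlapped Ash2l. It had 10 peaks over 10.3 kb, with sums of 16.8 in replicate 1 and 32.5 in replicate 2. Fdxr, the ferredoxin reductase that feeds electrons to mitochondrial P450 enzymes, had 6 peaks inside its body and sums of 17.9 in replicate 1 and 28.7 in replicate 2. Por, which does so for microsomal P450 enzymes, had 6 peaks inside its body and sums of 16.4 in replicate 1 and 24.8 in replicate 2. The highest of the group lay beyond the 3′ end of Scarb1, the receptor that takes up cholesterol from HDL, with 7 peaks and sums of 29.0 in replicate 1 and 39.9 in replicate 2.

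Cyp11b1, which makes corticosterone, had a cluster of 10 peaks over its start, with sums of 12.4 in replicate 1 and 15.4 in replicate 2. The same cluster was counted for Cyp11b2, the aldosterone synthase gene, from which it lay within 10 kb. The cluster by Cyp21a1, the 21-hydroxylase gene, had 9 peaks and sums of 11.8 in replicate 1 and 29.9 in replicate 2, a log2 ratio of -1.34 that was the lowest of all clusters. In its peaks 73.9% of the 32-base words occurred once in the reference, and Cyp21a1 has a near copy, so reads could be placed on either. Of the 6 clusters with the lowest ratio, 3 had fewer than 80% such words, those by Cyp21a1, in Bloc1s5 and in Tnxb, and 6 of all 612 did. The part of read placement in these ratios was not tested. Cyp11a1, the side-chain cleavage enzyme, and Nr5a1 itself had chains of 4 peaks at most and a cluster only, among the settings tried, with gaps of up to 10 kb or with replicate 2 used alone. Hsd3b1 had 5, and Hsd3b6, Fdx1, Mc2r, Mrap and Soat1 had 3 or fewer. A cluster of 6 peaks lay farther from Mc2r, the ACTH receptor gene, whose start was the nearest protein-coding one at 64.7 kb from the tallest peak, with sums of 13.0 in replicate 1 and 14.8 in replicate 2.

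In the zona glomerulosa list, the genes of the outer, aldosterone-making cortex, 4 of 15 had a cluster, or 26.7%. The share of all autosomal protein-coding genes was 2.84%. With the shorter peak lists 1 gene of the list, Kcnk3, had a cluster. Kcnk3, which encodes the potassium channel TASK-1, had 2 clusters, and the larger shared the highest number of peaks, 19, with Tnrc18. Both counts include listed peaks that overlap one another. The larger Kcnk3 cluster ran over 16.6 kb, partly inside the gene, and summed to 27.1 in replicate 1 and 45.1 in replicate 2. Its tallest peak reached 6.15 in replicate 1 and 9.70 in replicate 2, and 2 of the 19 peaks reached at least 50% of that height. The other Kcnk3 cluster had 8 peaks inside the gene and sums of 16.5 in replicate 1 and 25.8 in replicate 2. Cacna1h, a T-type calcium channel gene, had 10 peaks, and Wnt4, a signal of the outer cortex, had 6, both inside the gene. Agtr1a, Agtr1b, Kcnk9, Dab2, Rspo3, Axin2, Lef1, Vsnl1, Kcnj5, Cacna1d and Nr4a2 had none.

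Of 18 transcription factor genes of the adrenal, 5 had a cluster, or 27.8%, against 2.84% of all autosomal protein-coding genes. There were 3 with the shorter peak lists or where the cluster had to touch the gene body, and 2 with 8 or more peaks asked for. The cluster upstream of Nr4a1, an immediate early nuclear receptor, had 6 peaks and sums of 24.7 in replicate 1 and 34.9 in replicate 2. Meis1, a homeobox gene, had 2 clusters, the taller just upstream with 8 peaks and sums of 25.99 in replicate 1 and 36.5 in replicate 2, the other with 13 peaks at the far end of the gene. The cluster upstream of Cebpb, which lies in Tmem189, had 8 peaks and sums of 29.5 in replicate 1 and 48.9 in replicate 2. Those at Cited2 and Foxo1 spanned the gene start and had 6 peaks each. Those without included Gata4, Gata6, Nr4a3, Wt1, Tcf21, Nr2f1, Nr2f2, Nr3c1, Tead1 and Prdm16, and also Nr5a1 and Nr4a2 named above.

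Counts for the X-zone, an inner cortical layer of young mice, and for the medulla were near the 2.84% of all autosomal protein-coding genes. None of the 5 X-zone genes, Akr1c18, Thrb, Cyp2f2, Pik3c2g and Cyp17a1, had a cluster. Of 23 autosomal chromaffin cell genes 1 had a cluster, or 4.35%. This was Ddc, the decarboxylase of catecholamine synthesis, with 6 peaks and sums of 7.11 in replicate 1 and 7.95 in replicate 2. Those without included Th, Dbh, Pnmt, Chga, Chgb, Scg2, Scg3, Slc18a1, Slc18a2, Phox2a, Hand1, Hand2, Gata2, Gata3, Insm1, Isl1, Ret, Npy, Penk and Sox11. Among marker promoters, peaks were present in both libraries at 5 of 5 cortex genes and at the medulla genes Th, Dbh, Chga and Chgb. They were also present at 2 of 3 kidney genes and 1 of 2 central neuron genes, and at 0 of 2 liver genes. The central neuron gene, Slc17a7, reached 1.07 in replicate 1 and 1.97 in replicate 2, above Th with 0.738 in replicate 1 and 0.989 in replicate 2. The promoter heights of the 5 cortex markers summed to 25.3 in replicate 1 and 41.1 in replicate 2, and those of these medulla genes to 14.3 in replicate 1 and 25.5 in replicate 2. Most of the medulla sum was Chgb, with 10.4 in replicate 1 and 17.0 in replicate 2. The sums were 10.9 in replicate 1 and 16.3 in replicate 2 for 3 capsule and stroma markers. They were 9.20 and 13.4 for 4 endothelium markers and 2.12 and 2.76 for 3 macrophage markers, in the same order.

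Outside the adrenal lists, 5 of 18 circadian genes had a cluster, or 27.8%, against 2.84% of all autosomal protein-coding genes. The 5 were Nr1d1, Per1, Per2, Arntl and Nfil3, and the one counted for Per1 lay over Hes7 and held 4 tRNA genes. The list had 10 where gaps of up to 10 kb were joined, which gave 2018 clusters in all. It had 3 with RefSeq start sites added and 2 with 8 or more peaks asked for. Of 17 immediate early genes, Junb, Ier2 and Btg2 had one, or 17.6%, with sums at Ier2 of 33.0 in replicate 1 and 46.9 in replicate 2. The cluster counted for Btg2 overlapped Fmod and lay outside the Btg2 body. None of the 16 cholesterol synthesis genes, the 12 capsule and stroma genes or the 12 lipid storage genes had one. The 5 adrenal lists together had clusters at 16 of 73 distinct genes, or 21.9%. The 4 lists of kidney, liver, central neuron and skeletal muscle had them at 3 of 47, or 6.38%. Both shares were above the 2.84% of all autosomal protein-coding genes. Length moves with these counts, since genes with a cluster had a median length of 37.1 kb, against 17.6 kb for all autosomal protein-coding genes. The median was 15.9 kb for the steroid synthesis list, 46.4 kb for the zona glomerulosa list and 37.4 kb for the transcription factor list. The part of gene length in the counts was not tested.

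**Figure D3:**
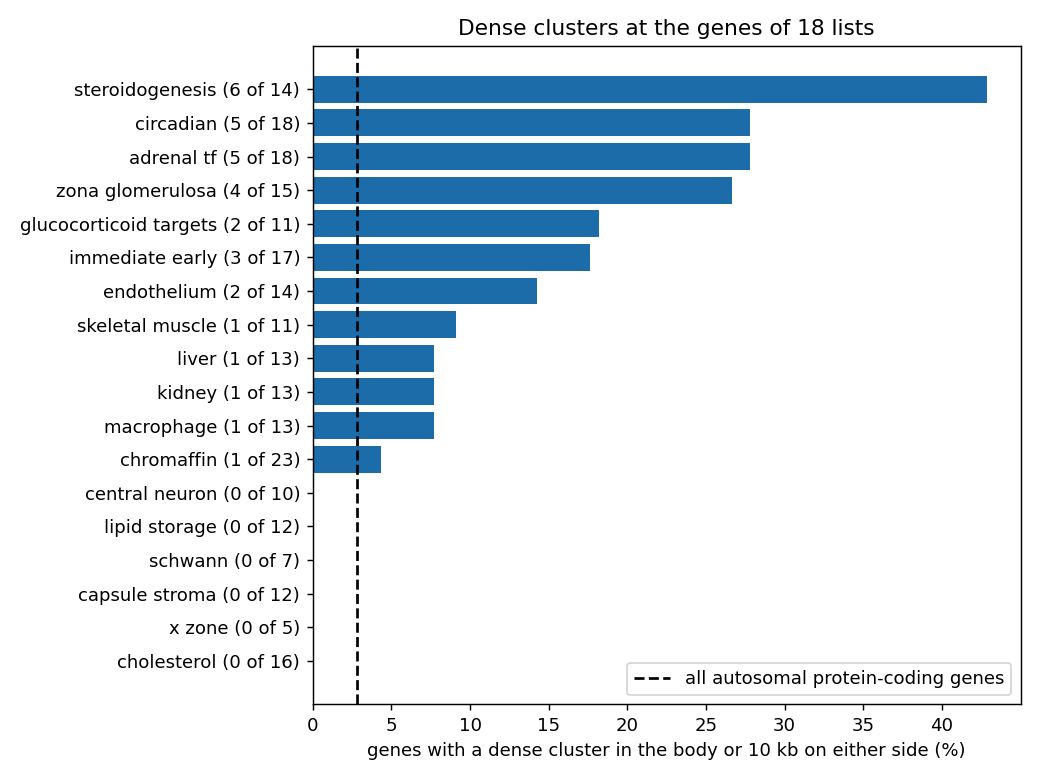
Percent of the genes of 18 lists with a dense cluster in the body or 10 kb on either side, with counts beside each name; the dashed line marks the 2.84% of all autosomal protein-coding genes. Steroid synthesis was highest with 6 of 14, and 6 lists had none. With the shorter peak lists, for which the dashed line does not hold, steroid synthesis had 2 of 14, and the circadian list had 4 of 18.

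Clusters lay both in genes and between them. Of the 612 clusters, 384 overlapped a protein-coding gene body and 228 did not, and 247 lay wholly inside 1 body. By peak centre, 50.4% of clustered peaks were intronic and 42.2% intergenic, against 51.7% and 41.5% of other shared distal peaks. The tallest peak was within 10 kb of a protein-coding TSS in 223 clusters, at 10 to 100 kb in 339 and farther in 50. The farthest was the cluster near Pou3f3, at 452 kb, with 9 peaks and sums of 5.94 in replicate 1 and 8.46 in replicate 2.

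Some clusters were themselves neighbours. Runs of clusters under 50 kb apart numbered 31 with 2 clusters, 8 with 3 and 1 with 4. The run of 4 lay in Gse1, a gene of a corepressor complex, and held 31 clustered peaks over 117.9 kb. Zmiz1, a coregulator gene, held 3 clusters with 27 peaks, and Pakap and Cmip held 3 each. Chromosome 11 had the most clusters, 68 or 5.57 per 10 Mb, and held 13.4 protein-coding genes per Mb. Chromosome 14 had the fewest, 16 or 1.28 per 10 Mb, with 7.22 genes per Mb. Chromosome 7 had the most genes, 13.9 per Mb, and 2.54 clusters per 10 Mb. Chromosome 12 had the fewest genes, 5.35 per Mb, and 2.75 clusters per 10 Mb. These chromosomes are named as extremes, and the relation of clusters to gene density over all autosomes was not tested.

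Clustered peaks were taller than the rest. In replicate 1 the median height was 1.46 for clustered and 0.981 for other shared distal peaks. In replicate 2, whose heights the rule did not use, it was 1.85 for clustered and 1.14 for other peaks. The replicate 2 height was higher the longer the chain, with a median of 0.971 for peaks on their own, 1.18 in pairs, 1.33 in chains of 3, 1.46 in chains of 4, 1.54 in chains of 5 and 1.85 in clusters. The replicates share the genome and the choice of peaks, so these values are a description.

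The deposited false discovery rates gave the openness of whole spans. The median share of a span under a false discovery rate of 0.05, the authors' measure of cutting above background, was 18.8% in replicate 1 and 20.5% in replicate 2. The share of all autosomal DNA was 1.84% in replicate 1 and 1.94% in replicate 2. Since peaks fill part of each span by the rule, the gaps between members are the closer comparison. Of the bases in gaps inside clusters 9.40% were under that rate in replicate 1 and 12.1% in replicate 2, and of those in chains of 2 to 5 peaks 6.96% in replicate 1 and 8.18% in replicate 2. These gaps also hold any promoter peaks and peaks of 1 library, 109 clusters spanned a protein-coding TSS, and the median gap was 1252 bp in clusters and 1594 bp in those chains. The part of these in the difference was not tested. In 21 clusters 50% or more of the span was under the rate in both libraries, and 10 of these spanned a protein-coding TSS. At Zfp503, with 8 promoter peaks of replicate 1 in the span, it was 85.9% in replicate 1 and 82.0% in replicate 2.

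Footprints, short stretches inside open chromatin that are protected from cutting, gave differences of opposite sign with and without regard to height. Pooled, 85.1% of clustered and 82.6% of other shared distal peaks overlapped one in replicate 1, and 85.4% of clustered and 82.9% of other peaks in replicate 2. The pooled sign held for the longer peak lists and reversed with the shorter ones, where the difference in replicate 1, clustered minus other, was -4.71 percentage points. Peaks were then split by height into 3 tiers of like size. Within the middle tier, 81.0% of clustered and 91.0% of other peaks did in replicate 1, and 80.3% of clustered and 90.9% of other peaks in replicate 2. In the lowest tier the shares in replicate 1 were 59.0% of clustered and 60.1% of other peaks, and in the highest tier 95.3% of clustered and 98.1% of other peaks. Replicate 2 had the same order in each tier. Among peaks at least 100 bp from any other shared distal peak, the middle tier of replicate 1 had 82.2% of clustered and 91.3% of other peaks. The replicate 1 share in that tier differed with how open the span was. It was 58.2% of 67 peaks in the 21 clusters open over 50% or more of their span. It was 78.7% of 569 peaks in those open over 20 to 50% and 84.0% of 920 in the rest. In the same order, 40.9%, 13.1% and 3.83% of all their peaks had a CpG ratio of at least 0.6 of that expected from base content. A protein-coding TSS lay in the span of 47.6%, 27.4% and 9.60% of the clusters. The part of these in the footprint shares was not tested.

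**Figure D4:**
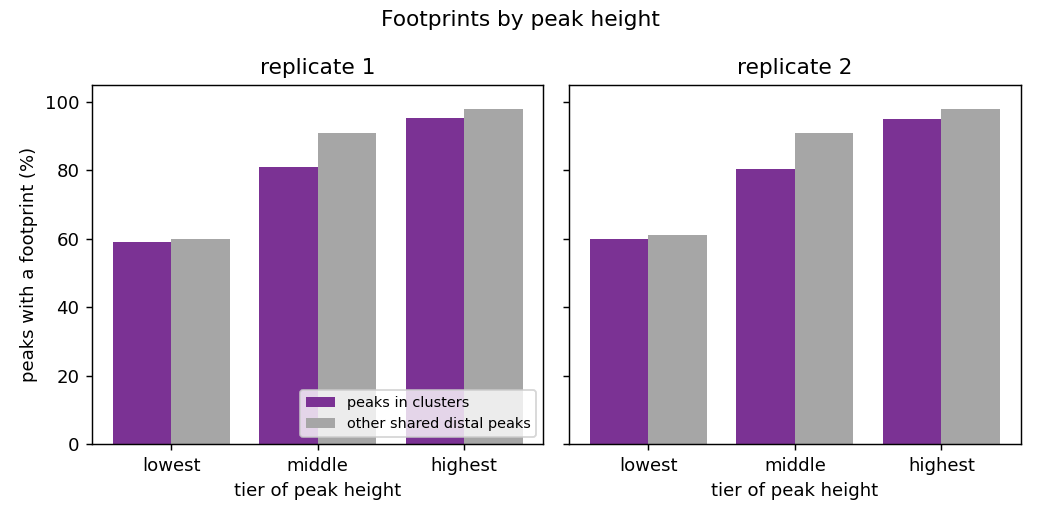
Percent of peaks that overlap a footprint, by tier of peak height, for clustered peaks (purple) and other shared distal peaks (grey) in each library. The clustered bar is lower in every tier of both libraries, most in the middle tier, where replicate 1 had 81.0% and 91.0%.

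The sequence of clustered peaks differed in composition. Mean GC content in the 100 bases on either side of the centre was 53.9% for clustered and 50.7% for other shared distal peaks in replicate 1, and 54.1% for clustered and 50.8% for other peaks in replicate 2. A CpG ratio of at least 0.6 of that expected from base content was found in 9.14% of clustered and 5.10% of other peaks in replicate 1. A total of 26 words were searched for on both strands, and a match is a description, not a binding site. The GC-rich box GGGCGGGG, bound by KLF and SP factors, was in 3.97% of clustered and 2.05% of other peaks in replicate 1, and in 3.98% of clustered and 2.12% of other peaks in replicate 2. The E-box CACGTG, bound by clock and MYC family factors, was in 5.76% of clustered and 3.98% of other peaks in replicate 1. The part of GC content in these shares was not tested.

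Other words were less frequent in clusters. The AP-1 word TGANTCA, bound by FOS and JUN proteins, was in 20.5% of clustered and 22.8% of other peaks in replicate 1, and in 19.9% of clustered and 22.4% of other peaks in replicate 2. The GATA word AGATAA was in 7.99% of clustered and 9.54% of other peaks in replicate 1. The CTCF core was in 0.138% of clustered peaks, 6 in number, and in 0.451% of other peaks in replicate 1. The SF-1 core CAAGGTCA was in 5.19% of clustered and 5.72% of other peaks in replicate 1, and in 5.06% of clustered and 5.63% of other peaks in replicate 2. Counted by cluster, 484 of 612 had at least 1 peak with the AP-1 word, 189 had the SF-1 core and 32.8% of all clusters had the E-box. Of the clusters at genes of the 5 adrenal lists, the SF-1 core was found in that of Kcnk3 alone, in the 2 peaks whose sequences are printed. A cluster near Irf2bp2 had 8 peaks of 13 with the AP-1 word, the most of any.

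**Figure D5:**
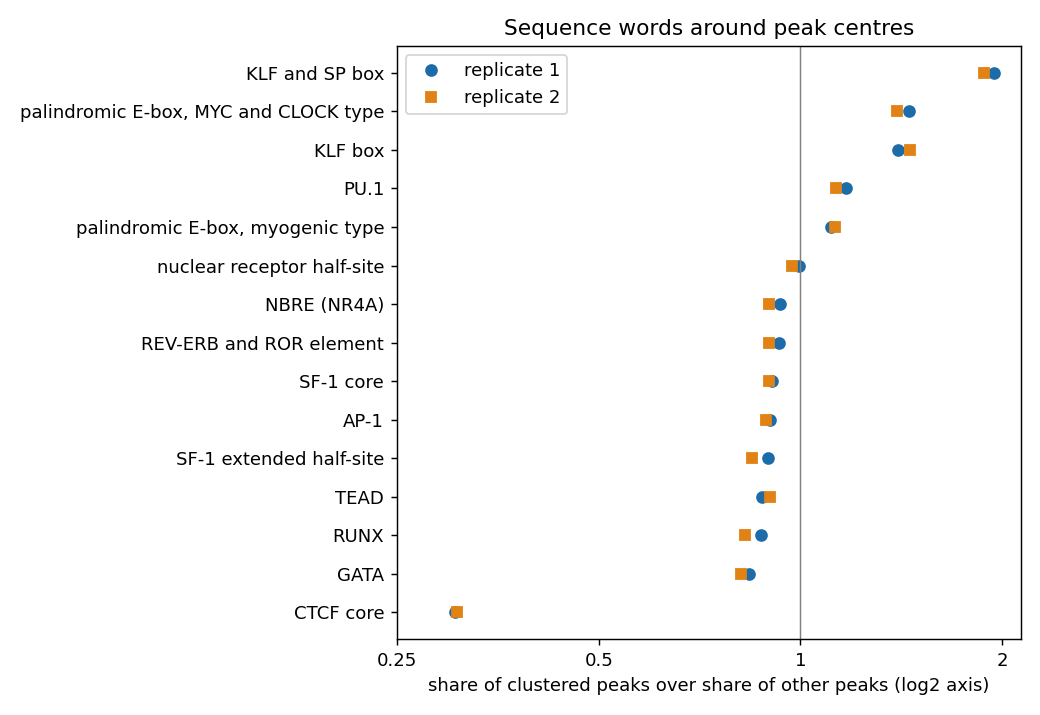
Share of clustered peaks with a word over the share of other shared distal peaks, on a log2 axis, in replicate 1 (circles) and replicate 2 (squares), for words in at least 50 clustered peaks and the CTCF core. The KLF and SP box was highest with 3.97% against 2.05% in replicate 1, and the CTCF core was lowest with 0.138% against 0.451%.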

How the data were processed

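All files were on mm10, and each came from the alignments of 1 library alone, per the labels and a deposited description. For aligner, peak caller and threshold: not given in the sources used here. Heights in the peak lists, as deposited by the authors, are a signal of unstated scale. Within each library 100% of heights were whole multiples of 1 step (0.00934 in replicate 1, 0.00883 in replicate 2, tolerance 0.05 steps). Read depth is unknown, so no counting interval is given. The deposited false discovery rates (a p-value unit) were all under 0.05 in both libraries, and the deposited footprint p-value is a constant 0.01. The longer lists held 157595 peaks in replicate 1 and 166206 in replicate 2.

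The members and lists were chosen with earlier results of these data known. Start sites were all transcripts of GENCODE M21. The rule asks for any annotated TSS, but this set was settled on when its count (612) and that of the basic set (761) had both been seen. The following were also chosen after seeing the data: mean instead of median GC (the medians hardly differed between libraries), the openness classes at 20 and 50%, the 80% limit on 32-base words that occur once, the look at tRNA genes and the 100 bp neighbour check. Overlap means 1 bp or more. Named were the 15 highest clusters, those with the most peaks and the longest span, and clusters at 5 adrenal gene lists. Others were named after their values were seen. A few genes, and the cluster ranked 10, are not reported here. Python 3.11.15, numpy 2.4.6 and pandas 2.3.3 were used, and chaining, overlap, coverage and word search were tested on simulated data. Sequences and tRNA genes are from RefSeq on mm10 (GRCm38.p6).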

Additional observations from a re-analysis of the deposited data

Results flagged for a closer look

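On chromosome X, which the rule leaves out, the same steps gave 7 clusters, with 61 of 1864 shared distal peaks or 3.27%. The largest, near Olfr1324, had 17 peaks and a summed height of 38.5 in replicate 1 and 47.0 in replicate 2. Of the others, 3 lay in Bcor, a corepressor gene, and 1 near it.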

How the results depend on the processing

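No paired analysis was possible because there is only 1 group. The number of clusters was 148 with gaps of at most 2.5 kb, 2018 with gaps of at most 10 kb, 1307 with 5 or more peaks, 147 with 8 or more, 158 with the shorter peak lists and 220 with peaks at or above the median height, and 1162 to 1500 without either replicate. The share of shared distal peaks in clusters was 1.18% (2.5 kb), 17.7% (10 kb), 8.77% (5 or more), 1.56% (8 or more), 3.96% (2 kb from a TSS), 5.68% (protein-coding TSS), 3.65% (overlap of 50%), 1.95% (shorter lists), 3.49% (median height), 4.38% (peaks merged), 4.94% (replicate 2 as start), 5.84% (basic TSS), 4.21% (RefSeq TSS added), 4.75% (no tRNA clusters) and 4.83% (no clusters under 80% of words occurring once), and 7.32% to 9.51% without either replicate. Started from replicate 2, 617 clusters were found, and 590 of the 612 overlapped one. With RefSeq TSS added there were 513, without those ranked 2, 8, 9, 12 and 14. The footprint difference, clustered minus other, reversed to -4.71 points with the shorter lists and to -1.09, -10.0 and -2.75 points in the lowest, middle and highest tier of height. It was 5.11 points with 10 kb gaps, 2.25 with 8 or more peaks, 2.64 with the basic TSS, 2.68 with RefSeq TSS added, 2.46 without tRNA clusters, 2.62 without clusters under 80% of words occurring once and 3.35 among peaks 100 bp or more apart, against 2.53 as reported. The GC difference of 3.24 points was 2.78 (10 kb), 3.83 (8 or more), 2.97 (2 kb), 3.85 (shorter lists), 3.43 (basic TSS), 3.10 (RefSeq TSS added), 3.32 (no tRNA clusters) and 3.07, 2.98 and 2.52 in the tiers of height. The log2 height difference of 0.57 was 0.20, 0.052 and 0.16 in those tiers, which by construction hold peaks of like height. Of the 16 adrenal list genes, 8 had a cluster with 8 or more peaks and 6 with the shorter lists. At a false discovery rate of 0.001 the median open share was 11.8%. Counts were taken as moved past a factor of 1.5, and other values past the spread between the 2 libraries. The other causes were not tested.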

Other observations

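The clusters in which replicate 1 exceeded replicate 2 the most were near Gm12728, with sums of 8.22 in replicate 1 and 4.49 in replicate 2, in Nrp1, with 10.5 in replicate 1 and 7.16 in replicate 2, and in Hao2, with 7.72 in replicate 1 and 5.57 in replicate 2. All 3 had 100% of 32-base words occurring once in the reference.

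The shortest cluster, in the dopamine receptor gene Drd2, packed 6 peaks into 1.83 kb, with sums of 3.34 in replicate 1 and 3.25 in replicate 2. The cluster in Tchh was the most open in replicate 1, with 90.6% of its span under a false discovery rate of 0.05 and 91.0% in replicate 2. The cluster near Gm15319 had the fewest 32-base words occurring once, 13.0%.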
